A study of Mus musculus with 28 samples.

Results

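The proteasome is described here through 10 genes: Psma7, Psma8, Psmb5, Psmb8, Psmb6, Psmb9, Psmb7, Psmb10, Psme1 and Psme4. They were chosen by name, as 4 pairs of subunits that can take each other's place and a pair of activators, out of 27978 genes that had a value in all libraries. RNA-seq of polyadenylated RNA came from 28 libraries of 13 mice, of which 20 held germ cells sorted by Hoechst staining from 8 mice, 7 held a whole testis and 1 a whole ovary. Wildtype mice gave the ovary (mouse 86), the whole testes of mice 178 and 648, spermatogonia, primary and secondary spermatocytes of mice 178 and 648, and spermatids of mice 178, 351 and 648. Csmd1 knockout mice gave whole testes (214, 269, 273, 286 and 308), spermatogonia (286 and 544), primary spermatocytes (544, 550, 613 and 614), secondary spermatocytes (286, 544 and 550) and spermatids (286 and 544). No animal received a treatment, the labels give the strain as C57BL/6, and the methods give siblings from a mixed 129SvEvBrd:C57BL/6 stock and an age of about 40 days for the males that were sorted. The study describes whole testes of both sexually immature and mature males. An age for a single mouse (40 days) was at hand for mice 178 and 351 alone, so the age behind each other library, the ovary included, was not checked here, and age may differ between whole testes, within groups as well. The knockout is constitutive, in all cells, and rests on 1 allele, in which a lacZ and neomycin cassette stands in place of the first Csmd1 exon and some of the intron after it. The study asked about the role of Csmd1 in male and female gonads, and used this RNA-seq to measure Csmd1 and C3 by stage and genotype.

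The proteasome degrades proteins tagged with ubiquitin. Its 20S core is a stack of rings of alpha and beta subunits, in which Psmb5, Psmb6 and Psmb7 encode the catalytic beta subunits. In cells of the immune system, and in other cells after interferon, Psmb8, Psmb9 and Psmb10 encode subunits that replace these, and the particle is then called the immunoproteasome. Psma7 encodes an alpha subunit of the outer ring, and Psma8 is its paralog in male germ cells, the subunit that defines the spermatoproteasome. Caps open the core: the 19S particle, which recognises ubiquitin, the 11S ring built from the products of Psme1 and Psme2 (PA28 alpha and beta), and PA200, the product of Psme4, which is known in testis for its part in the breakdown of acetylated histones.

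The genes lie, in the GRCm38 annotation, on the chromosomes as follows, and each value below covers the exons of their annotated transcripts. Psma7 (ENSMUSG00000027566) spans chr2:180036374-180042433 on the minus strand, and Psma8 (ENSMUSG00000036743) spans chr18:14706151-14762298 on the plus strand. Psmb5 (ENSMUSG00000022193) lies at chr14:54614119-54618022, Psmb6 (ENSMUSG00000018286) at chr11:70525367-70527858 and Psmb7 (ENSMUSG00000026750) at chr2:38588036-38644087. Psmb8 (ENSMUSG00000024338) and Psmb9 (ENSMUSG00000096727) are neighbours at chr17:34197721-34201454 and chr17:34181987-34187764, whereas Psmb10 (ENSMUSG00000031897) lies at chr8:105935739-105938444. Psme1 (ENSMUSG00000022216) lies at chr14:55578123-55581529 and Psme4 (ENSMUSG00000040850) at chr11:30771726-30880361.

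The longest stretch that both coding transcripts of a pair share was 17 nt for Psma8 and Psma7, 18 nt for Psmb8 and Psmb5, 11 nt for Psmb9 and Psmb6 and 15 nt for Psmb10 and Psmb7, all far below the length of a read. Other genes did share read-length stretches with some members: 24.4% of the read-length windows of Psmb5 were found in other genes, nearly all in Gm3375, 19.8% of those of Psmb7 in Nek6 and 8.95% of those of Psmb9 in Tap1. Psmb8 and Psmb10 are overlapped by the antisense genes Gm20496 and Gm16156. The libraries are not stated to keep the strand, so reads of these overlapping genes cannot be told apart.

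The stretches just before the start sites of 5 members are shown, those whose RefSeq start site lay near the annotated gene start. In germ cells Psma7 and Psmb10 fell, Psme4 rose, and Psmb5 and Psmb6 did not pass any stage test. The sequences are from the RefSeq promoter table of GRCm38.p6, which held 8 of the 10 members (not Psma8 or Psmb7), and run 5′ to 3′ on the gene's strand, from 250 bases before the RefSeq start site. Bases that the annotation places inside the gene were left off at the 3′ end. Capitals mark any match, on either strand, to the MYB core AACNGNC, the interferon element (GAAA and GAAA with 2 bases between), the gamma site TTCNNNGAA, the CRE core TGACG or the antioxidant element TGACNNNGC, where the last 2 can overlap each other. Psma7 is shown at chr2:180042465-180042714 (minus strand), Psmb5 at chr14:54618023-54618245 (minus strand), Psmb6 at chr11:70525107-70525356 (plus strand), Psmb10 at chr8:105938445-105938642 (minus strand) and Psme4 at chr11:30771525-30771725 (plus strand).
Psma7: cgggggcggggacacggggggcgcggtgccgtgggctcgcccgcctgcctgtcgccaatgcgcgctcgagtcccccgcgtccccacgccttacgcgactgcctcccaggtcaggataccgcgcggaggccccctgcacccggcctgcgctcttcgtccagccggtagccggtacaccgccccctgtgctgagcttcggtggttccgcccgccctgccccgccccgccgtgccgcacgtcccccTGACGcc
Psmb5: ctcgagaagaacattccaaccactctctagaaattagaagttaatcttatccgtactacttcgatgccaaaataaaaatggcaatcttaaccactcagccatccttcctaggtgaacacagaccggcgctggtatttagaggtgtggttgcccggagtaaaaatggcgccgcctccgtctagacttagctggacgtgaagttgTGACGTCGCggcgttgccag
Psmb6: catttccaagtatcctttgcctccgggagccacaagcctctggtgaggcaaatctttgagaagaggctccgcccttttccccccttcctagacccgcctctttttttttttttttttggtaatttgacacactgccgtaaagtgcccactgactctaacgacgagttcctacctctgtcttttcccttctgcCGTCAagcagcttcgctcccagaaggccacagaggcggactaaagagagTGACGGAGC
Psmb10: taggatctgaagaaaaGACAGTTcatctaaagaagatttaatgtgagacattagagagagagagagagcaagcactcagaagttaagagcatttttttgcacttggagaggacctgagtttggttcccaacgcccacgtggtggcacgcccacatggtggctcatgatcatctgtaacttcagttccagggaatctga
Psme4: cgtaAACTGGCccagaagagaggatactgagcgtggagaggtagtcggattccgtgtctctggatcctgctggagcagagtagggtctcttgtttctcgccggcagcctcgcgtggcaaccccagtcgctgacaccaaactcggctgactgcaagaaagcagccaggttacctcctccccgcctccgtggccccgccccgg
In the full 250 bases, the CRE core was found in 4 of the 8 members (Psma7, Psmb5, Psmb6 and Psmb9) against 17.8% of all 32851 promoters of the table, and the antioxidant element in 2 (Psmb5 and Psmb6) against 10.2%. The MYB core was found in 3 of 8 (Psmb5, Psmb10 and Psme4) against 27.7%, and the gamma site in 1 of 8 (Psmb8) against 7.02%. The interferon element was in none of the 8, against 2.98% of all promoters. The RefSeq start sites used for Psmb8, Psmb9 and Psme1 lay 474, 434 and 371 nt from the annotated gene start. For the members shown above this distance was 10 to 52 nt. These are matches of letters in a window and were not tested.

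Values are RPKM, mapped reads scaled to transcript length and library depth, summed over the annotated transcripts of a gene. Transcripts of a gene share exons and were counted one by one, so a sum counts shared reads more than once and grows with the number of transcripts in the table (12 for Psme1, 7 for Psma7 and Psme4, 1 for Psma8, Psmb5 and Psmb10). Levels of different genes within a library are therefore compared on the transcript with the longest coding sequence of each gene, called the coding transcript. In 27 libraries the values fall on whole reads and give an estimated depth of 23795775 to 61633641 mapped reads (median 45363508). The primary spermatocytes of mouse 613 were the exception, and their depth is unknown. Csmd1 itself ranged from 0.033 to 1.66 RPKM in the wildtype and from 0.049 to 6.33 RPKM in the knockout sorted libraries, but these values cover exons outside the deleted part and do not check the genotype.

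The labels were set against marker genes, and some libraries stood apart. The summed level of 6 spermatogonia markers was 303 to 916 RPKM in spermatogonia and 10.9 to 285 RPKM in the other sorted stages. The 6 primary spermatocyte markers did not separate spermatogonia (346 to 2021 RPKM in sum) from primary spermatocytes (446 to 2268 RPKM). Between these stages limma called 0 of the 6, with a median log2 difference of -0.020. The part of meiotic cells in the spermatogonia libraries was not tested. The spermatogonia library of mouse 544 goes against its label for Prm1, a protamine of late spermatids, with 1402 RPKM, against 0.094 to 92.9 RPKM in the other 3. Prm1 was 930, 1299 and 2579 RPKM in the spermatids of mice 544, 351 and 178 but 0.579 and 2.14 RPKM in those of mice 648 and 286, and it was 0.439 to 1.16 RPKM in 4 whole testes (648, 269, 286 and 308) against 603 to 1922 RPKM in the other 3. Spermatogonia also held more signal of other cells: the 7 leukocyte markers summed to 41.1 to 126 RPKM there and to 5.57 to 30.4 RPKM in the later stages, and the 6 Leydig cell markers reached 328 RPKM in the spermatogonia of mouse 648. In all these bulk libraries fewer cells of a type and less RNA per cell cannot be told apart.

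Psma8, the germ cell alpha subunit, peaked in primary spermatocytes, while its paralog Psma7 fell from spermatogonia onward. Psma8 was 8.36, 3.87, 11.2 and 9.59 RPKM in the spermatogonia of mice 178, 648, 286 and 544. It was 22.5, 19.8, 59.2, 35.0, 28.8 and 22.0 RPKM in the primary spermatocytes of mice 178, 648, 544, 550, 613 and 614. No primary spermatocyte library was as low as any spermatogonia library. Between these stages Psma8 rose by 1.79 on the log2 scale (SE 0.46, limma with Benjamini-Hochberg adjustment over 19025 genes, adjusted p = 0.0078, n = 6 and 4). Secondary spermatocytes gave 11.4, 6.84, 5.76, 18.1 and 6.10 RPKM (mice 178, 648, 286, 544 and 550), and spermatids 3.76, 2.85, 5.83, 5.48 and 1.78 RPKM (mice 178, 351, 648, 286 and 544). Every secondary spermatocyte library was below every primary one, with a difference of -1.60 (SE 0.44) and an adjusted p of 0.056 by limma. With the mouse as a block the same step had a log2 difference of -1.69 (adjusted p = 0.0093), and spermatids against spermatogonia changed from -1.10 (adjusted p = 0.069) to -1.05 (adjusted p = 0.041). Within mice 178, 286, 544 and 648 the latter difference was -1.13, -1.02, -2.36 and 0.58, and the block was the only one of 18 alternatives in which it passed (range -1.51 to -0.38). In order of medians, Psma8 was highest in primary spermatocytes (25.6 RPKM), then whole testis (20.6), spermatogonia (8.97), secondary spermatocytes (6.84), spermatids (3.76) and ovary (1.05). Spermatogonia and secondary spermatocytes overlapped, as did secondary spermatocytes and spermatids. Without mouse 648 the rise into primary spermatocytes was 1.56 and did not pass (adjusted p = 0.11).

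**Figure D1:**
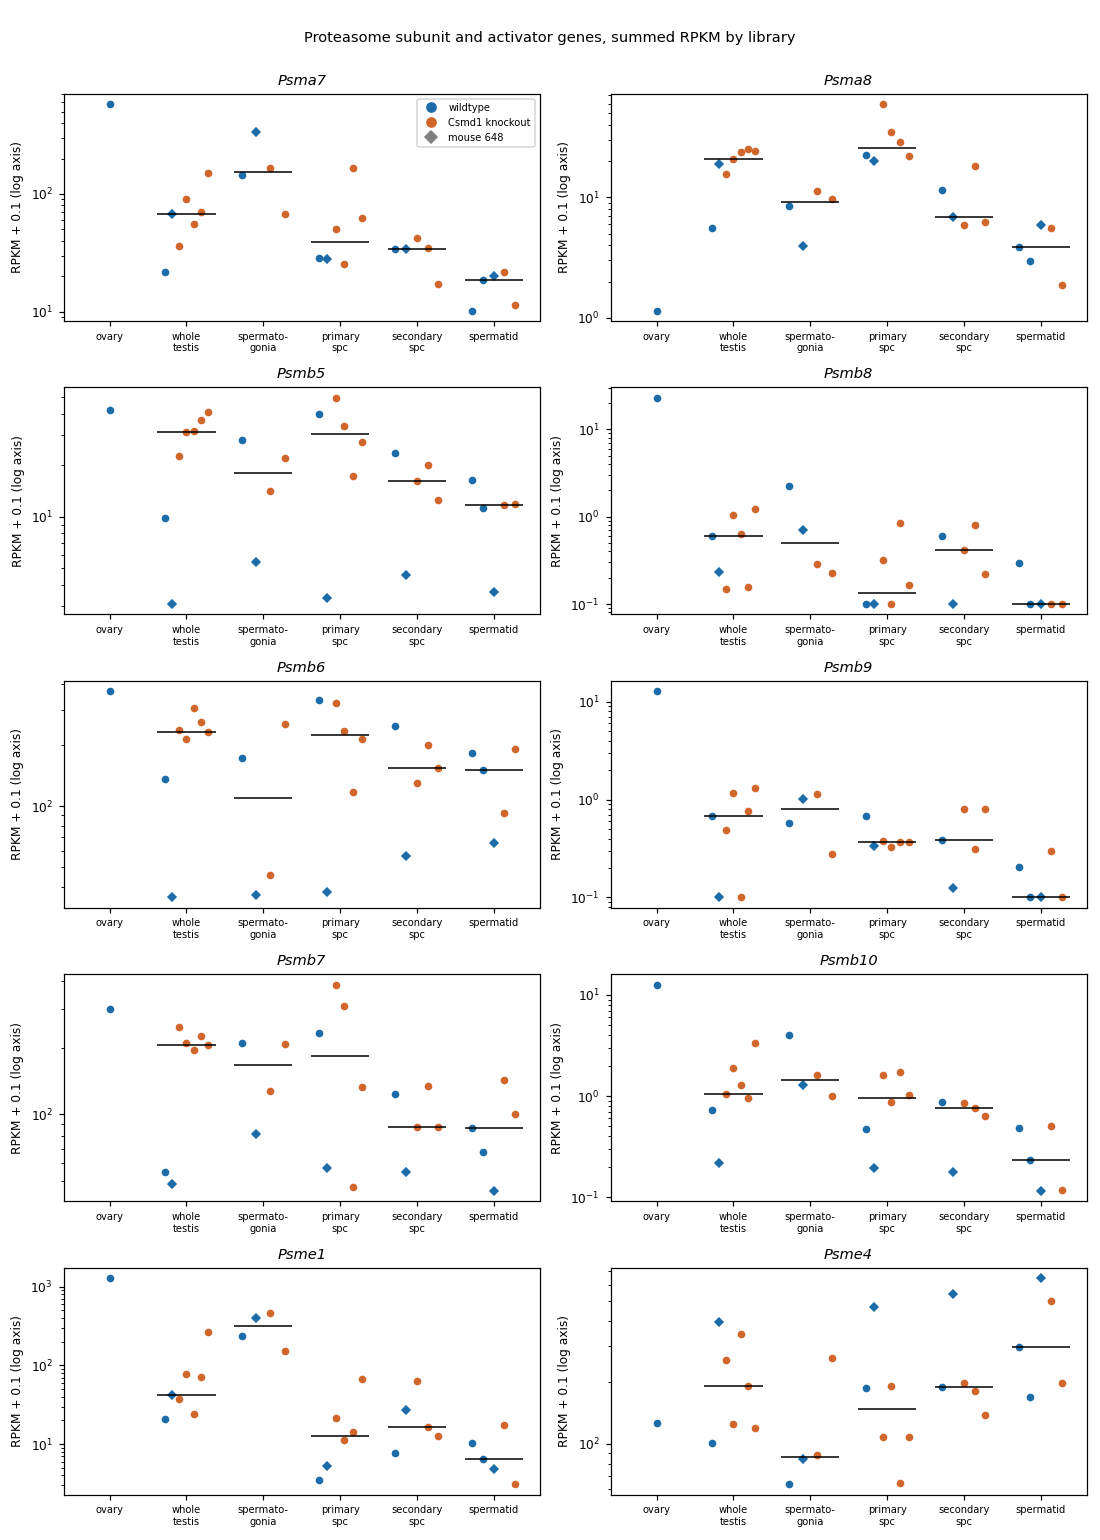
Summed RPKM + 0.1 of each member (log axis) in every library of the ovary, whole testes and 4 sorted stages (spc, spermatocytes), with wildtype in blue, Csmd1 knockout in orange, diamonds for mouse 648 and black lines at the stage median. Psma8 has its highest sorted values in primary spermatocytes (19.8 to 59.2 RPKM), Psme1 and Psma7 in spermatogonia apart from 1 primary spermatocyte library of Psma7, and Psmb8, Psmb9 and Psmb10 lie lowest in spermatids.

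Psma7 was 143, 336, 166 and 68.0 RPKM in the spermatogonia of mice 178, 648, 286 and 544. It was 28.3, 28.2, 50.0, 25.1, 165 and 62.6 RPKM in primary spermatocytes (mice 178, 648, 544, 550, 613 and 614). The high value of mouse 613, quantified apart from the others, lay almost wholly in 1 retained-intron transcript (154 RPKM), and its coding transcript had 7.68 RPKM, within the 5.77 to 13.8 RPKM of the other 5. Spermatids had 10.2 to 21.6 RPKM and did not overlap spermatogonia. Psma7 fell by 1.89 (SE 0.51, limma adjusted p = 0.0093) into primary spermatocytes. From spermatogonia to spermatids it fell by 3.28 (SE 0.52, adjusted p = 0.00018). Without mouse 286 or mouse 648 the first of these had an adjusted p of 0.058 or 0.15, while the second passed in all 18 alternatives.

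On coding transcripts the order of the 2 paralogs turned. Psma8 made up 19.7, 4.44, 22.4 and 38.5% of the sum of both in the spermatogonia of mice 178, 648, 286 and 544, where the highest share is that of the library with the Prm1 signal. It made up 61.4 to 85.9% (median 78.2%) in the 6 primary spermatocyte libraries. Psma7 thus had more in every spermatogonia library and Psma8 more in every primary spermatocyte library. The share was 38.2 to 70.6% in secondary spermatocytes, 41.6 to 61.6% in spermatids, 40.4 to 66.8% in whole testes and 0.819% in the ovary. On sums over transcripts Psma8 reached only 14.9 to 58.2% in primary spermatocytes, since Psma7 has more annotated transcripts.

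The activators changed places too. Psme1, the PA28 alpha chain, was 235, 403, 470 and 152 RPKM in the spermatogonia of mice 178, 648, 286 and 544. Primary spermatocytes had 3.45, 5.11, 21.6, 11.2, 14.3 and 67.6 RPKM (mice 178, 648, 544, 550, 613 and 614), all below the lowest spermatogonia value. Psme1 fell by 4.88 (SE 0.66, limma adjusted p = 0.00035) at this step. From spermatogonia to spermatids, which had 2.98 to 17.2 RPKM, it fell by 5.34 (adjusted p = 4.4e-05). Both calls held in all 18 alternatives. The 7 leukocyte markers, given above, were higher in every spermatogonia library than in any later one, the 6 endothelial and stromal markers summed to 16.2 to 140 RPKM in spermatogonia and 4.47 to 39.3 RPKM in primary spermatocytes, none of these markers was at 0 throughout either stage, and their part in the fall was not tested. Among primary spermatocytes mouse 614 was highest for Psme1 and also for the spermatogonia markers (285 RPKM, against a median of 63.1).

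Psme4, which encodes PA200, was 63.3, 84.7, 88.0 and 262 RPKM in the spermatogonia of mice 178, 648, 286 and 544. The highest of these belongs to the library with the Prm1 signal. Spermatids had 299, 170, 647, 498 and 199 RPKM (mice 178, 351, 648, 286 and 544), all above the other 3 spermatogonia libraries. The spermatids of mice 648 and 286, highest for Psme4, had almost no Prm1 (0.579 and 2.14 RPKM). Psme4 rose by 1.59 between these stages (SE 0.53, limma adjusted p = 0.022), with no single step past the threshold: primary spermatocytes had 64.4 to 469 RPKM (median 148) and secondary spermatocytes 139 to 544 RPKM (median 189). Without mouse 178, 286 or 648 the adjusted p was 0.089, 0.34 or 0.075, and the difference without mouse 286 was 0.87. Psme4 did not pass the test of any difference between stages (limma F test, adjusted p = 0.085). Psme4 was higher in spermatids than in spermatogonia in 3 of the 4 mice with both stages, the exception being mouse 544. On coding transcripts Psme4 made up 36.4 to 45.1% of the pair with Psme1 in 3 spermatogonia libraries, 86.8% in that of mouse 544, 84.3 to 99.6% in primary spermatocytes and 98.5 to 99.7% in spermatids.

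The immunoproteasome subunits were low in germ cells, and Psmb8 and Psmb9 were near the limit of detection in spermatids. The coding transcript of Psmb8 had no read in 3 of 5 primary spermatocyte and 4 of 5 spermatid libraries of known depth, and in these stages 3 reads, the most that a count of 0 allows, would be 0.031 to 0.077 RPKM. Psmb8 summed to 2.16, 0.61, 0.18 and 0.12 RPKM in the spermatogonia of mice 178, 648, 286 and 544. Primary spermatocytes had 0, 0, 0.22, 0, 0.74 and 0.066 RPKM (mice 178, 648, 544, 550, 613 and 614), and overlapped spermatogonia. Within mice 178, 544 and 648 the log2 difference between these stages was -4.50, 0.50 and -2.83. Secondary spermatocytes had 0.51, 0, 0.31, 0.70 and 0.12 RPKM (mice 178, 648, 286, 544 and 550). Spermatids had 0.19 RPKM in mouse 178 and 0 in the other 4. Psmb8 fell by 2.24 from spermatogonia to spermatids (SE 0.68, limma adjusted p = 0.014) and by 1.82 into primary spermatocytes (SE 0.67, adjusted p = 0.047), on a log2 scale of RPKM + 0.1 that understates changes at such levels. The sizes depend on the pseudocount: between 1 and 0.01 RPKM the first ranged from -0.65 to -4.71 and the second from -0.54 to -3.73. The second call was lost in 11 of 16 alternatives (adjusted p of 0.010 to 0.24 over all), and the first without mouse 286 (0.10) or mouse 544 (0.062).

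Psmb9 had 0.48, 0.91, 1.04 and 0.18 RPKM in the spermatogonia of mice 178, 648, 286 and 544 and 0.11, 0, 0, 0.20 and 0 RPKM in the spermatids of mice 178, 351, 648, 286 and 544. Its coding transcript rested on 1 to 9 reads in spermatogonia and 0 to 2 in spermatids. It fell by 2.14 between these stages (SE 0.56, limma adjusted p = 0.0056), and without mouse 648 the adjusted p was 0.056. With pseudocounts of 1 and 0.01 RPKM the difference was -0.60 and -4.08. Psmb10 had 3.96, 1.20, 1.5 and 0.91 RPKM in the same spermatogonia libraries and 0.38, 0.13, 0.015, 0.40 and 0.017 RPKM in spermatids, with no overlap. Its coding transcript rested on 44 to 302 reads in spermatogonia and 1 to 26 in spermatids. It fell by 2.84 (SE 0.63, adjusted p = 0.0019), a call kept in all 17 alternatives, with a size of -1.19 and -3.89 at pseudocounts of 1 and 0.01 RPKM. Into primary spermatocytes Psmb10 had a difference of -1.47 (adjusted p = 0.078), which passed with the mouse as a block (-1.35, adjusted p = 0.023). The same step passed with the set of libraries quantified together as a term (-1.19, limma adjusted p = 0.028) and with a pseudocount of 1 RPKM. All 3 genes are known for their expression in leukocytes, and the leukocyte markers were lower in the later stages as well: 6 of the 7 fell into primary spermatocytes (22.0% of all genes) and 5 of the 7 from spermatogonia to spermatids (30.0%). The part of these cells in the fall of Psmb8, Psmb9 and Psmb10 was not tested. Of 7 tested genes of antigen processing and the interferon response, 3 fell and none rose from spermatogonia to spermatids, where 30.0% of all genes fell. Into primary spermatocytes 3 of the 7 fell and 1 rose, where 22.0% of all genes fell and 9.49% rose.

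The constitutive catalytic subunits had wide and overlapping ranges in all 4 sorted stages. Psmb5 was 5.36 to 27.9 RPKM in spermatogonia, 3.27 to 49.5 in primary spermatocytes, 4.49 to 23.6 in secondary spermatocytes and 3.54 to 16.3 in spermatids. Psmb6 spanned 36.3 to 255, 37.6 to 333, 56.2 to 249 and 65.5 to 190 RPKM in the same stages, and Psmb7 81.3 to 210, 46.7 to 387, 54.4 to 134 and 44.9 to 143 RPKM. None of the 3 passed a test of any difference between stages (limma F test, adjusted p of 0.69, 0.81 and 0.54), while 6 of the 10 members and 51.3% of all genes did. With the set of libraries quantified together as a term, Psmb7 was lower in secondary than in primary spermatocytes (-1.12, adjusted p = 0.018, with 18.5% of genes called) and in spermatids than in spermatogonia (-0.84, adjusted p = 0.022, with 56.4% called). Within the 4 mice with these stages, Psmb7 in secondary spermatocytes minus spermatogonia was -0.76, -0.55, -0.64 and -0.58, and Psmb5 in spermatids minus spermatogonia was -0.77, -0.27, -0.89 and -0.59 (mice 178, 286, 544 and 648). Mouse 648 was the lowest library for Psmb5 and Psmb6 in all 4 sorted stages, as 6.20% of all genes were. The median of the other mice was 3.30 to 10.4 times its level for Psmb5 and 2.55 to 6.23 times for Psmb6 in the sorted stages. Psmb7 was lowest in mouse 648 in 3 stages, and in primary spermatocytes only the library of mouse 613 was lower (46.7 against 57.1 RPKM). On the coding transcript mouse 648 was lowest there too, with 21.9 RPKM against 46.7 in mouse 613, whose other Psmb7 transcript is listed at 0. The same mouse had the highest Psme4 in primary spermatocytes, secondary spermatocytes and spermatids (469, 544 and 647 RPKM). Mouse 614, quantified in the same set of libraries, had 27.1, 214 and 133 RPKM of Psmb5, Psmb6 and Psmb7 in primary spermatocytes.

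The balance within each pair was tested directly in the 4 mice with spermatogonia and later stages (178, 286, 544 and 648), as the log2 ratio of both genes in later stages minus that in spermatogonia, on sums over transcripts, since the number of transcripts is the same in both stages. The ratio of Psma8 to Psma7 was higher in later stages by 2.98, 1.47, 1.72 and 4.88 in mice 178, 286, 544 and 648, a mean of 2.76 ± 1.56 (SD, n = 4). The exact two-sided permutation of stages within mice gave p = 0.0052, the smallest of its 192 arrangements (0.013 adjusted over the 5 pairs). The ratio of Psme4 to Psme1 was higher by 6.95, 5.66, 3.15 and 8.22, a mean of 6.00 ± 2.16 (SD, n = 4) with the same exact p = 0.0052. Both pairs moved in the same direction in 4 of 4 mice. The ratio of Psmb9 to Psmb6 was lower by 1.73 ± 1.35 on average and that of Psmb10 to Psmb7 by 1.58 ± 0.83 (SD, n = 4, lower in 4 of 4 mice for both, exact p = 0.016 and 0.026, adjusted 0.026 and 0.033). Psmb8 to Psmb5 had a mean of -1.34 ± 1.55, lower in 3 of 4 mice (exact p = 0.11, adjusted 0.11). With quantile normalization the Psmb9 and Psmb10 pairs did not pass, with differences of -1.12 and -0.77 (exact p = 0.14 and 0.063), and with a pseudocount of 1 RPKM the Psmb10 pair had -0.49 (exact p = 0.14). Without mouse 178, 286 or 648 the Psmb9 pair had an exact p of 0.063, 0.063 or 0.083, and without mouse 178 or 648 the Psmb10 pair had 0.10 or 0.063, where the smallest p of such tests of 3 mice is larger than with 4.

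**Figure D2:**
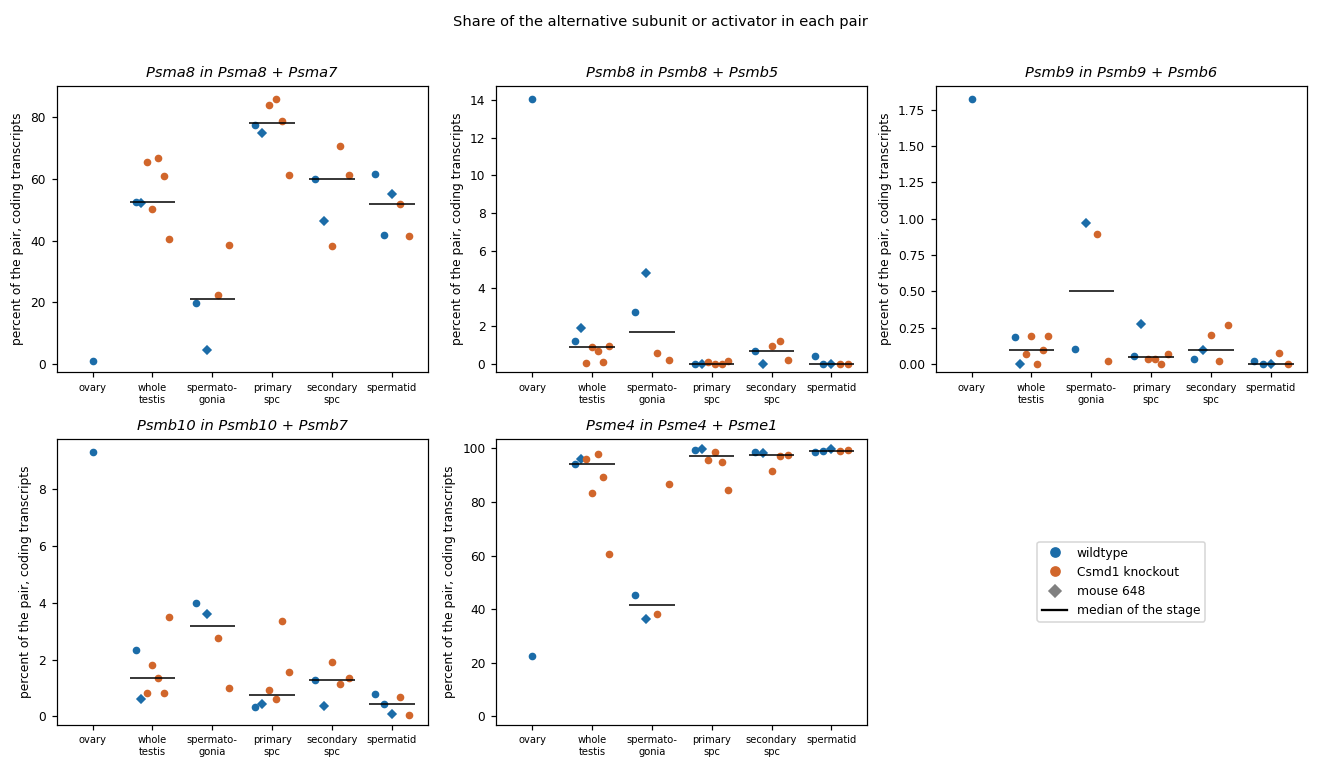
Share of the first gene of each pair in the sum of both (percent, RPKM of coding transcripts) per library, for the ovary, whole testes and sorted stages (spc, spermatocytes), with wildtype in blue, knockout in orange, diamonds for mouse 648 and lines at the stage median. Psma8 lies at 61.4 to 85.9% in primary spermatocytes and at 0.819% in the ovary, Psme4 at 98.5 to 99.7% in spermatids and at 22.6% in the ovary, and the shares of Psmb8, Psmb9 and Psmb10 are highest in the ovary (14.03, 1.82 and 9.30%).

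Counted over the 10 members, 4 passed between spermatogonia and primary spermatocytes, where 31.5% of all 19025 genes did (limma, adjusted p of at most 0.05): Psma8 was higher, as were 9.49% of genes, and Psma7, Psmb8 and Psme1 were lower, as were 22.0%. From spermatogonia to spermatids 6 passed against 45.0% of genes: Psme4 was higher (14.9% of genes) and Psma7, Psmb8, Psmb9, Psmb10 and Psme1 were lower (30.0%). The median difference of the members was -1.62 there, against -0.38 over all genes. The shares by direction depend on the scaling. With quantile normalization 16.4% of genes were higher and 15.0% lower into primary spermatocytes. From spermatogonia to spermatids these shares were 22.0% and 22.6%. Between primary and secondary spermatocytes (3.04% of genes) and between secondary spermatocytes and spermatids (0.536%, with 0.00526% higher and 0.531% lower) limma called 0 members. At an unadjusted p under 0.05 the first of these steps held Psma8 alone, among 4120 of 19025 genes, and the second Psma8, Psmb8, Psmb9 and Psme1, among 3358. Without mouse 648 the first count was 1 (Psme1), with 11.5% of all genes called, and without mouse 286 it was 2 (Psma8 and Psme1), with 22.2% called.

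**Figure D3:**
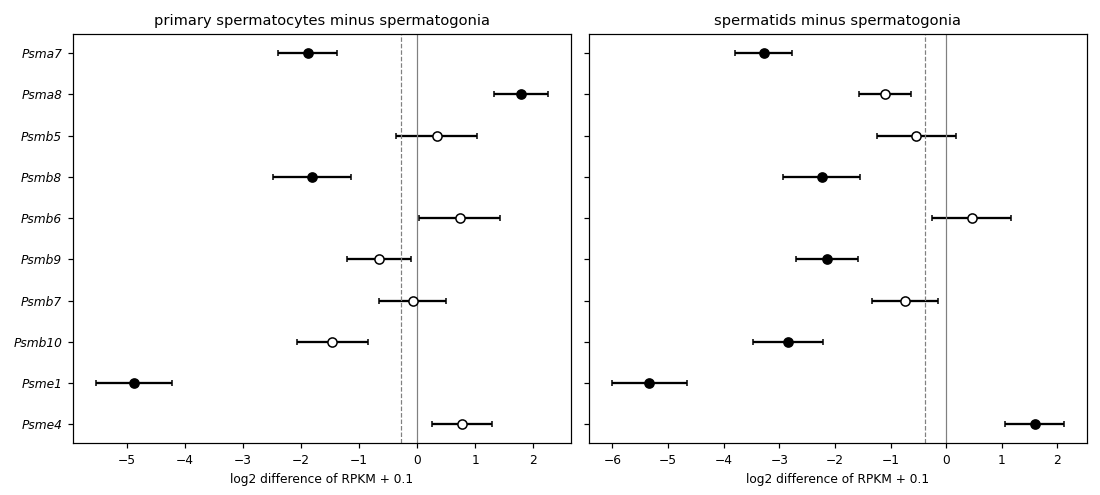
Log2 difference of RPKM + 0.1 of each member between primary spermatocytes and spermatogonia (left) and between spermatids and spermatogonia (right), with SE bars from limma, filled points at an adjusted p of at most 0.05 and a dashed line at the median of all genes. Psme1 has the lowest value in both panels (-4.88 and -5.34), Psma8 is filled on the left only and Psme4 on the right only.

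The other proteasome genes were a list of 42, of which 41 were tested (Paaf1 was not). From spermatogonia to spermatids 16 fell and 1 rose, where 30.0% of all genes fell and 14.9% rose (median -0.74 against -0.38 over all genes). Those that fell were 3 of 6 other alpha subunits (Psma1, Psma2 and Psma4), 3 of 5 other beta subunits (Psmb1, Psmb2 and Psmb3), 2 of 6 ATPases of the 19S base (Psmc1 and Psmc6), 2 of 13 other 19S subunits (Psmd1 and Psmd14), Psme2, and 5 of 8 assembly factors (Pomp, Psmd5, Psmg1, Psmg3 and Psmg4). Psme2, the PA28 beta chain that forms a ring with the product of Psme1, fell by 5.33 (SE 0.92, limma adjusted p = 0.00034), from 102 ± 57.5 RPKM in spermatogonia (SD, n = 4) to 4.71 ± 6.73 in spermatids (n = 5). Psmd5, a chaperone of base assembly, fell by 2.67 (SE 0.46, adjusted p = 0.00035), and Psma2 by 2.75 (SE 0.53, adjusted p = 0.00073). Psmc2, a 19S ATPase, rose by 1.31 (SE 0.41, adjusted p = 0.015), from 67.9 ± 49.5 to 152 ± 38.5 RPKM.

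Into primary spermatocytes 2 of the 41 fell and none rose, where 22.0% of all genes fell and 9.49% rose. Psme2 fell by 4.69 (SE 0.90, limma adjusted p = 0.0013), beside Psme1. Psmd10, the base chaperone gankyrin, fell by 2.89 (SE 0.49, adjusted p = 0.00069) to 1.63 ± 1.25 RPKM (SD, n = 6) and rose again by 2.46 (SE 0.47, adjusted p = 0.014) into secondary spermatocytes. Psmd10 was the only one of the 41 called at that step, and 0 were called between secondary spermatocytes and spermatids. With the mouse as a block the counts of the first 3 steps were 4, 6 and 3, where 41.0, 19.9 and 10.4% of all genes were called, and without the spermatogonia library of mouse 544 the first was 7, where 35.6% were.

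**Figure D4:**
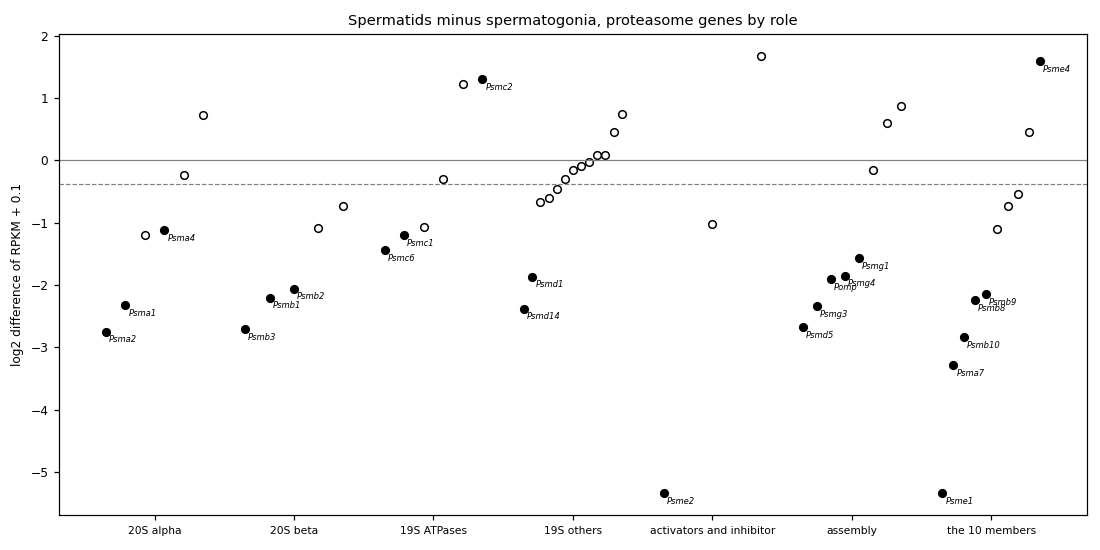
Log2 difference of RPKM + 0.1 between spermatids and spermatogonia for 41 other proteasome genes by role and for the 10 members, with filled and named points at a limma adjusted p of at most 0.05, and a dashed line at the median of all genes (-0.38). Psme1 and Psme2 lie lowest (-5.34 and -5.33), and Psmc2 and Psme4 are the filled points above 0.

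The ovary was set against the whole testes. In the ovary 5 members were at least 2-fold above the highest of the 7 testes, as were 33.3% of genes, and 1 was at least 2-fold below the lowest, as were 11.8%. With 1 ovary this is a comparison of libraries, with no test. Psmb8 was 22.9 RPKM in the ovary and 0.050 to 1.13 RPKM in testes, Psmb9 was 12.7 against 0 to 1.22 RPKM, and Psmb10 was 12.5 against 0.12 to 3.23 RPKM. These are 20.2, 10.4 and 3.89 times the highest testis. Psma7 and Psme1 had 578 and 1289 RPKM in the ovary and at most 152 and 264 RPKM in testes. Psma8 had 1.05 RPKM in the ovary against 5.44 to 24.9 RPKM. Psmb5, Psmb6 and Psmb7 had 42.1, 370 and 300.5 RPKM in the ovary, 1.04, 1.21 and 1.21 times the highest testis, and Psme4 had 126 RPKM, within the testes' 100.6 to 395 RPKM. The leukocyte markers summed to 418 RPKM in the ovary and 10.2 to 24.4 RPKM in testes, and their part in the difference of Psmb8, Psmb9 and Psmb10 was not tested. With quantile normalization Psmb10 was no longer 2-fold above the highest testis.

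Between genotypes no member passed without a term for the set of libraries. In whole testis limma called 0 of 18765 genes (2327 had an unadjusted p under 0.05), and the median difference of all genes between knockout and wildtype was 0.44. Psmb5 was 9.73 and 3.0 RPKM in the wildtype testes of mice 178 and 648 and 22.5, 31.2, 31.5, 36.8 and 40.6 RPKM in the knockout testes of mice 214, 269, 273, 286 and 308. Psmb6 was 136 and 35.2 RPKM against 215 to 305 RPKM, Psmb7 was 54.9 and 48.3 against 196 to 249 RPKM, and Psmb10 was 0.63 and 0.12 against 0.86 to 3.23 RPKM. In these 4 members every knockout testis was above both wildtype testes, as it was for 18.0% of all genes. The log2 differences were 2.54, 1.84, 2.07 and 1.93 (limma adjusted p of 0.27, 0.27, 0.27 and 0.32), and the exact two-sided permutation gave p = 0.048 for each, the smallest of 21 arrangements. Quantile-normalized differences were 1.78, 1.14, 1.39 and 1.71. The other 6 members overlapped between genotypes. The wildtype group holds mouse 648, described above, and Prm1 divided both genotypes (603 RPKM or more in 1 of 2 wildtype and 2 of 5 knockout testes). The part of these differences between mice, and of age, in the values was not tested.

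In sorted cells limma called 0 of 10 members and 0 of 19025 genes in each of the 4 stages, with 1018, 1666, 550 and 139 genes at an unadjusted p under 0.05 from spermatogonia to spermatids. Of the members, Psmb8 in spermatogonia (-2.33, unadjusted p = 0.034) and Psme1 and Psmb10 in primary spermatocytes (2.36 and 2.04, unadjusted p = 0.014 and 0.021) were below that level, with adjusted p of 0.91, 0.42 and 0.47. Psme1 was 3.45 and 5.11 RPKM in the wildtype and 11.2 to 67.6 RPKM in the knockout primary spermatocytes, which did not overlap. The 6 spermatogonia markers also did not overlap in their sum, with 17.3 and 18.3 RPKM in wildtype and 45.2 to 285 RPKM in knockout primary spermatocytes, and 3 of the 6 were higher in every knockout library. The 6 spermatid markers summed to 8.87 and 134.5 RPKM in wildtype and 231 to 371 RPKM in knockout, and all 6 were higher in every knockout library. At this stage the median difference of all genes between knockout and wildtype was itself 0.41. No marker of these lists was at 0 throughout either genotype, and their part in the difference of Psme1 was not tested. With the set of libraries as a term the difference of Psme1 was 3.96 (adjusted p = 0.013), in a fit that called 402 genes in this comparison (2.11%), 398 of them higher in knockout. At this stage mice 648 (wildtype) and 614 (knockout) shared a set, and no other set held both genotypes, so set and genotype nearly coincide. The effect of stage was not shown to differ between genotypes for any gene (limma interaction F test, 0 of 19025 genes; no member had an unadjusted p under 0.05).

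The genes most like 3 members were taken by Pearson correlation of log2 (RPKM + 0.1) over the 20 sorted libraries, among 13279 genes with a mean of at least 1 RPKM. The libraries share mice and depth, so these are descriptions. Psma8 was most like Stambp (r = 0.97), Exd2 (0.97), Mdc1 (0.96), Piwil1 (0.96) and Id4 (0.95). Piwil1 encodes a piRNA-binding protein of spermatocytes and Mdc1 a DNA damage mediator that acts on the sex chromosomes in meiosis. Psme4 was most like Zmynd12 and Ppp1r42 (both 0.98), Fxr1, Wdr78 and Fam227b (all 0.96). Psmb8, at its low level, reached only 0.83 with Loxl2, 0.83 with Trpm2 and 0.81 with Aph1a, Fmo5 and Fam241b.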

How the data were processed

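RNA-seq libraries of wildtype and Csmd1 knockout mice were grouped by genotype, tissue and sorted stage from the labels, with the mouse as replicate. The authors mapped 2 × 101 bp reads with TopHat2 to Ensembl transcripts and deposited RPKM values for 94480 transcripts. In 27 libraries 93.1 to 94.6% of low values lay within 0.06 of a whole read (12% by chance, 14.1% in that of mouse 613). GENCODE M21 (GRCm38) matched 90339 transcripts, and 78640 with a value in all libraries were summed into 27978 genes. The pattern of transcripts without a value sorts the libraries into 4 sets taken as quantified together. Genes with a mean of at least 0.1 RPKM were tested on log2 (RPKM + 0.1) with limma 3.58.1 (trend) in R 4.3.3, in a fit of the 20 sorted libraries (8 groups of genotype by stage, stage differences averaged over genotypes) and a fit of the 7 whole testes, with Benjamini-Hochberg adjustment over all genes and a threshold of 0.05. Pairs and whole testes were tested by exact permutation in Python 3.11.15 (numpy 2.4.6, pandas 2.3.3). The fit was run on simulated data with independent libraries and an SD of 0.5 between them. Of 200 genes changed by 3 log2 units, 100% were recovered among 19025 genes between primary spermatocytes and spermatogonia, with 2 false calls. In whole testis 100% were recovered among 18765 genes, with 16 false calls. Real libraries of 1 mouse were correlated, and most member differences were smaller than 3. The simulation therefore does not give the rate of recovery in these data. Libraries of 1 mouse are paired by the animal, as the labels give its number, with a correlation of 0.40 in the blocked fit. Within groups, pairs of libraries shared at most 0.041% of transcript values, so none was a repeat of another. Intervals of reads cover counting error only. The p-values of limma rest on the spread between libraries of a group, each of another mouse, with no mouse term in the main fit. Permutation p-values rest on exchanging stages within mice for the pairs, and genotypes between testes for whole testis.

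Named genes are the 10 members, the 3 other proteasome genes with the smallest adjusted p per direction and stage comparison, all others called between spermatids and spermatogonia (named after their values were seen), and the 5 genes most like Psma8, Psme4 and Psmb8. The members and lists were chosen with earlier results of these data known. Alternatives were the pseudocount (1 and 0.01 RPKM), the filter (none, 1 RPKM), quantile normalization, 1 transcript per gene, the mouse as a block, the set of libraries as a term, wildtype libraries alone and each mouse left out; coding transcripts for the pairs were added after the data were seen. Promoters are from RefSeq.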

Additional observations from a re-analysis of the deposited data

Results flagged for a closer look

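Of 20 combinations of member and group with 4 or 5 knockout libraries, 1 held a library far from the others. There the gap to the next library was 0.78 of the range of the RPKM values. About 1 in 20 was taken as the rate by chance, which was not checked for values on this scale. Psme1 was 264 RPKM in the knockout testis of mouse 308, against 24.4 to 77.1 RPKM in the other 4. The same testis was highest for the summed spermatogonia markers (421 RPKM, against a median of 78.9 in the 7 testes) and the Sertoli cell markers (362 RPKM, against 105), and their part in the value was not tested.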

How the results depend on the processing

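Each of the 10 member differences that passed kept its direction in all its 16 to 18 alternatives, and those of Psme1, Psmb10 and Psma7 (spermatids) also passed in all of them, while the sizes of Psmb8, Psmb9 and Psmb10 moved several-fold with the pseudocount. The pair differences of Psma8 to Psma7 and Psme4 to Psme1 passed in every alternative with a test (without 1 mouse 2.06 to 3.19 and 5.25 to 6.94). Psmb9 to Psmb6 was -1.12 with quantile normalization and -2.26 to -1.26 without 1 mouse. Psmb10 to Psmb7 was -0.49 with a pseudocount of 1 RPKM, -0.77 with quantile normalization and -1.89 to -1.32 without 1 mouse.

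With a mouse left out, members called numbered 1 to 4 between spermatogonia and primary spermatocytes and 0 to 1 between primary and secondary spermatocytes, and other proteasome genes 2 to 8, 0 to 2 and, from spermatogonia to spermatids, 11 to 19. Over all genes the shares called were 11.5 to 39.0%, 0 to 8.83% and 26.6 to 52.2% at these comparisons, in the same order. Between primary and secondary spermatocytes 1 member (Psma8) passed with a filter of 1 RPKM (3.84% of all genes called) and with quantile normalization (2.78%). The same member passed with the replicate block (19.9%) and without the spermatogonia library of mouse 544 (7.90%). There 2 members (Psma8 and Psmb7) passed with the set of libraries as a term (18.5%). That term also gave 5 members into primary spermatocytes (Psmb10 added, with 42.3% of all genes called). It gave 3 members between secondary spermatocytes and spermatids (10.96% of all genes, against 0.536% without it). From spermatogonia to spermatids the term gave 7 (Psmb7 added, with 56.4% of genes), and between genotypes 1 (Psme1, with 2.11% of genes). With a pseudocount of 1 RPKM Psmb10 passed into primary spermatocytes and Psmb8 did not. From spermatogonia to spermatids 3 members passed with the filter of 1 RPKM (50.1% of all genes), which left out Psmb8, Psmb9 and Psmb10. Among other proteasome genes the step into primary spermatocytes gave 6 with quantile normalization, 4 with the replicate block, 7 with the set term and 7 without the spermatogonia library of mouse 544. In these fits 31.4, 41.0, 42.3 and 35.6% of all genes were called. The next step gave 6 with the block, 7 with the set term and 0 in wildtype libraries alone, where 19.9, 18.5 and 0% of all genes were called. The last gave 3 with the block and 3 with the set term, where 10.4 and 10.96% of all genes were called. The cause was not tested. With the block, genes called at the 4 comparisons were 7805, 3786, 1976 and 10737, against 5997, 578, 102 and 8556 without it, and it changed no other member's call than those given above. Leaving out mouse 544 or only its spermatogonia library is the same for the pairs, so the second was not run. Psmb8 and Psmb9 rest on few reads.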
